A study of Mus musculus with 6 samples.

Results

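The receptor chains for IL-23, IL-12, IL-6 and IL-27 form a small family of membrane proteins through which a helper T cell reads these cytokines. This account covers the 6 genes Il23r, Il12rb1, Il12rb2, Il6st, Il6ra and Il27ra among 30702 genes measured. They were chosen by name, as the genes whose single platform symbol is one of these, and each had exactly 1 array row (6 rows). The samples were 6 cultures of mouse CD4 T cells, sorted as naive cells (CD25-, CD62L+, CD44-) and activated through CD3 and CD28 for 3 days. In 3 cultures the TH17-skewing medium held glutamine, and in 3 it held none. Each of the 6 media contained TGF-beta (1.25 ng/ml), IL-23 (20 ng/ml), IL-6 (20 ng/ml) and serum (10%). Antibodies (10 ug/ml) neutralized IL-12, IL-4 and IFN-gamma in every culture. The mouse strain and age were not given in the sources used here, and no label ties the biological replicates to different mice, so each p-value reflects only the variation among these cultures.

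IL-23 is recognised by a pair made of the IL-23-specific chain IL-23R (Il23r) and the chain IL-12R-beta-1 (Il12rb1). IL-12 uses the same shared chain with its own specific chain IL-12R-beta-2 (Il12rb2). IL-6 binds the IL-6 receptor alpha chain (Il6ra), and IL-27 binds WSX-1 (Il27ra); both then signal through gp130 (Il6st), the shared transducer of the IL-6 family. The chains lack kinase activity. Those that signal carry JAK kinases, which phosphorylate STAT proteins, chiefly STAT3 below IL-6 and IL-23 and STAT4 below IL-12. In TH17 cells, IL-6 with TGF-beta starts the programme and raises Il23r, and IL-23 then sustains it.

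Il23r and Il12rb2 lie on mouse chromosome 6 with only a pseudogene between them among the genes measured, and were the 2 members that fell without glutamine, so their promoters are shown first. The RefSeq promoter table, which covers 250 bases before to 50 after a gene's start, held 4 of the 6 members (Il23r, Il12rb2, Il6st and Il6ra). Capitals mark AGGTCA, the core bound by ROR factors, and TTCNNNGAA, the palindrome bound by STAT dimers, on either strand; no match overlapped another. The Il23r window is chr6:67491806-67492105 and the Il12rb2 window is chr6:67376139-67376438 (GRCm38.p6, both on the minus strand, printed 5′ to 3′ along the gene).
Il23r: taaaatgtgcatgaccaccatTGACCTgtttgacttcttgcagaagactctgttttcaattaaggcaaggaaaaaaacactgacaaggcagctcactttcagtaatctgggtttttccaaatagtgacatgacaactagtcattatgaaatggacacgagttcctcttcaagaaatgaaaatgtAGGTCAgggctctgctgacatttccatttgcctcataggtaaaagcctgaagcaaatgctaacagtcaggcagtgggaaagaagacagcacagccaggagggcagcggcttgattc
Il12rb2: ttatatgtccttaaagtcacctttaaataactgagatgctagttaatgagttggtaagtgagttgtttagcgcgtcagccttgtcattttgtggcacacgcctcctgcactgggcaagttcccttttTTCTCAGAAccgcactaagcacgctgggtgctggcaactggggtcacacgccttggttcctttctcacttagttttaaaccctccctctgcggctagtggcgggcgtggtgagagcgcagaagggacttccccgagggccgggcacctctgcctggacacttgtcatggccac

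The Il23r window held AGGTCA at 2 places, on the gene's strand from position -66 and on the opposite strand from position -229, counted from the start of the gene. Of 32851 promoter windows of the same length, 16.3% held that core at least once. The Il12rb2 window held no AGGTCA but held TTCNNNGAA at 1 place, from position -123, a palindrome present in 8.3% of all windows. Neither motif was found in the windows of Il6st and Il6ra. The AP-1 motif TGANTCA (7.81% of all windows) was in none of the 4 windows, and ACGTG, the core bound by hypoxia-inducible factors (19.6% of all windows), was in the Il6ra window alone, where 2 matches on opposite strands overlap. A match describes letters and no binding.

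Without glutamine the cytokine-specific chains of the IL-23 and IL-12 receptors fell and the shared chains rose. Il23r fell by 4.83 log2 and Il12rb2 fell by 2.89, while Il12rb1, the partner of both, rose by 1.65 and Il6st, which encodes gp130, rose by 1.48. Il27ra rose by 0.45, and Il6ra did not pass the test (change -0.13). Thus 5 of 6 members passed at an adjusted p under 0.05 (limma, Benjamini-Hochberg over all genes), 3 of them higher and 2 lower, against 22.3% of all genes (9.3% higher and 13.0% lower). All 6 members were among the 15351 genes above the median level. When only those genes were fitted, 6513 passed, 2424 higher and 4089 lower, and again 5 of 6 members. The groups did not overlap in 5 of 6 members, against 43.8% of all genes. The members were chosen with earlier results of these data known, so these counts describe them and are no test of the set. The median change of the members was 0.16 log2, beside 0.06 over all genes. In whole cultures, fewer cells with a transcript and less of it per cell cannot be told apart.

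**Figure D1:**
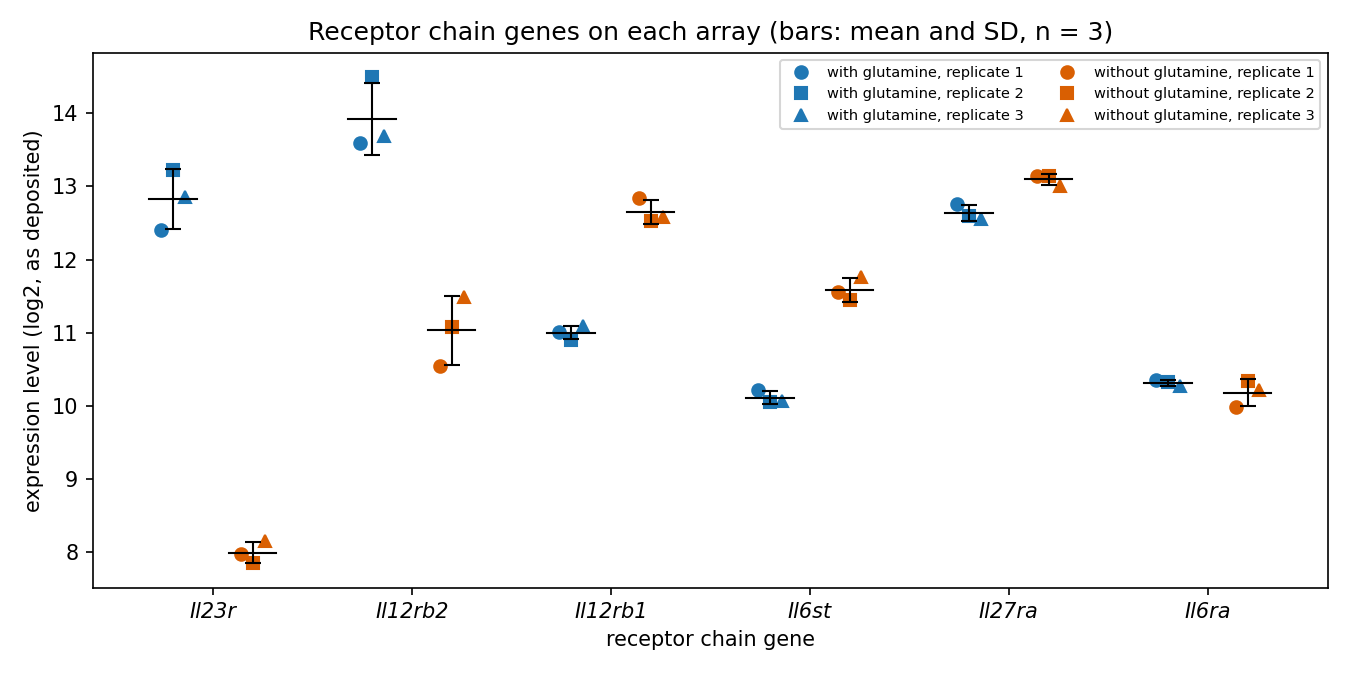
Level of each receptor chain gene (log2, as deposited) on each of 6 arrays, with glutamine in blue and without in orange; lines and bars are means and SDs (n = 3). Il23r and Il12rb2 sit lower without glutamine and Il12rb1, Il6st and Il27ra higher, with no overlap, while the Il6ra groups overlap; heights of different genes are not comparable.

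The arrays' scale bears on how these values read. The median over all rows was 4.18 to 4.21 log2 on arrays with glutamine and 4.33 to 4.38 on arrays without it, and 695 to 887 rows per array exceeded 16, the log2 range of a 16-bit scanner, so changes stay as log2 differences and are not turned into folds. The median change of all genes moved from 0.060 as deposited to -0.048 after quantile normalization and to -0.095 after centring each array on its median. All 6 members stood above the row median, and no direction among them turned under either scaling. CD4 T cell markers were bright in both groups: the 7 measured ones (Lck was not analysed here) averaged 13.94 to 14.12 log2 per array with glutamine and 14.06 to 14.13 without it. Of those 7, 1 rose (Cd3d, by 0.88, adjusted p = 0.0174), 1 fell (Thy1, change -0.93, adjusted p = 0.00993) and 5 did not pass. After quantile normalization 1 rose and 3 fell, Cd4 (change -0.52, adjusted p = 0.00637) and Cd3e (-0.42, adjusted p = 0.0328) being the added falls. Cd3d lost its call without with glutamine replicate 2 (adjusted p = 0.0579) and without without glutamine replicate 1 or 2 (0.056 or 0.0633), within a range of 0.00553 to 0.0831. Of 5 measured TH17 markers, 4 fell without glutamine and 0 rose. The counts of both marker lists, as deposited, stand beside 13.0% of all genes that fell and 9.3% that rose. Il17a, which encodes the defining TH17 cytokine, stood at 12.75 ± 0.41 with and 5.94 ± 0.47 log2 without glutamine (SD, n = 3).

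Il23r, the chain that makes a T cell responsive to IL-23, read 12.40, 13.22 and 12.85 log2 on the 3 arrays with glutamine and 7.98, 7.86 and 8.15 on the 3 without it. The lowest array with glutamine stood far above the highest without it, and the spread was wider with glutamine (SD 0.41) than without (SD 0.15). The means were 12.82 and 8.00 log2 (n = 3 each), a change of -4.83 with a 95% confidence interval of -5.31 to -4.34 and an adjusted p of 8.84e-05 (limma). Of all genes, 8 fell further, which put Il23r at rank 9. The remaining level of 8.00 log2 stood above the array medians.

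Il12rb2, the chain that gives TH1 cells their response to IL-12, read 13.59, 14.49 and 13.69 log2 with glutamine. It read 10.55, 11.07 and 11.49 log2 without glutamine. The groups stood apart, although this member varied most within both groups (SD 0.50 with and 0.47 without glutamine). Its mean fell from 13.92 to 11.04 log2, a change of -2.89 (95% confidence interval -3.63 to -2.14, adjusted p = 0.00166), at rank 42 among the falls. The medium of all cultures held an antibody against IL-12, so this chain was measured where its cytokine was meant to be blocked. With glutamine, replicate 2 gave the highest reading of both Il23r and Il12rb2; without glutamine, replicate 3 did so for both.

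Il12rb1, the chain that IL-23R and IL-12R-beta-2 share, moved the opposite way. It read 11.01, 10.91 and 11.09 log2 with glutamine and 12.84, 12.52 and 12.58 without it. Each array without glutamine stood at least 1 log2 above every array with it, and replicates lay close together (SD 0.09 and 0.17). Its mean rose from 11.00 to 12.65, a change of 1.65 (95% confidence interval 1.40 to 1.90, adjusted p = 0.000266), at rank 51 among the rises.

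Il6st, the gene of gp130, read 10.21, 10.05 and 10.07 log2 with glutamine and 11.55, 11.45 and 11.76 without it. The groups again stood apart with little spread inside them (SD 0.09 and 0.16). The mean rose from 10.11 to 11.59 log2, a change of 1.48 (95% confidence interval 1.23 to 1.72, adjusted p = 0.000339), at rank 79 among the rises. Il6st and Il12rb1 therefore changed by similar amounts, and their confidence intervals overlap; the difference between these 2 rises was not tested.

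The cytokine-binding partners of gp130 changed less than gp130. Il27ra, the IL-27-binding chain, read 12.76, 12.60 and 12.56 log2 with glutamine and 13.14, 13.14 and 13.01 without it, a rise of 0.45 (95% confidence interval 0.25 to 0.65, adjusted p = 0.0113). Its groups did not overlap, yet the gap between the nearest arrays was narrow. The rise kept its direction but shrank after centring the arrays, to 0.30 (adjusted p = 0.0488, within 0.0079 to 0.0488 over its alternatives).

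Il6ra, the IL-6-binding chain, read 10.35, 10.32 and 10.28 log2 with glutamine. It read 9.98, 10.35 and 10.22 log2 without glutamine, so the groups overlapped. The change of -0.13 had a 95% confidence interval of -0.38 to 0.11 and an adjusted p of 0.385 (limma), so a fall beyond 0.38 or a rise beyond 0.11 log2 lay outside the interval. The proteases ADAM10 and ADAM17 can cut the IL-6 receptor from the cell surface. Adam17 fell from 11.16 ± 0.02 to 10.55 ± 0.17 log2 (SD, n = 3; adjusted p = 0.00653), while Adam10 read 13.51 ± 0.08 and 13.53 ± 0.21.

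Whether chains of 1 receptor changed unequally was compared within arrays for 5 pairs, by the shift of the log2 difference between 2 chains. The difference Il23r minus Il12rb1 moved by -6.48 ± 0.29 log2 (SE, n = 3 per group), the widest shift among the pairs. Il12rb2 minus Il12rb1 moved by -4.53 ± 0.49. Thus in both receptors the specific chain and the shared chain changed in opposite directions. Il23r minus Il12rb2, the contrast of the 2 specific chains, moved by -1.94 ± 0.27, so that Il23r fell further than Il12rb2. For gp130, Il6ra minus Il6st moved by -1.61 ± 0.16 and Il27ra minus Il6st by -1.02 ± 0.14. In each pair the 3 arrays of one group stood apart from the 3 of the other. The exact permutation test (two-sided) gave p = 0.10 for each pair, also after adjustment over the 5 pairs, which is the smallest p that 3 against 3 arrays allow.

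**Figure D2:**
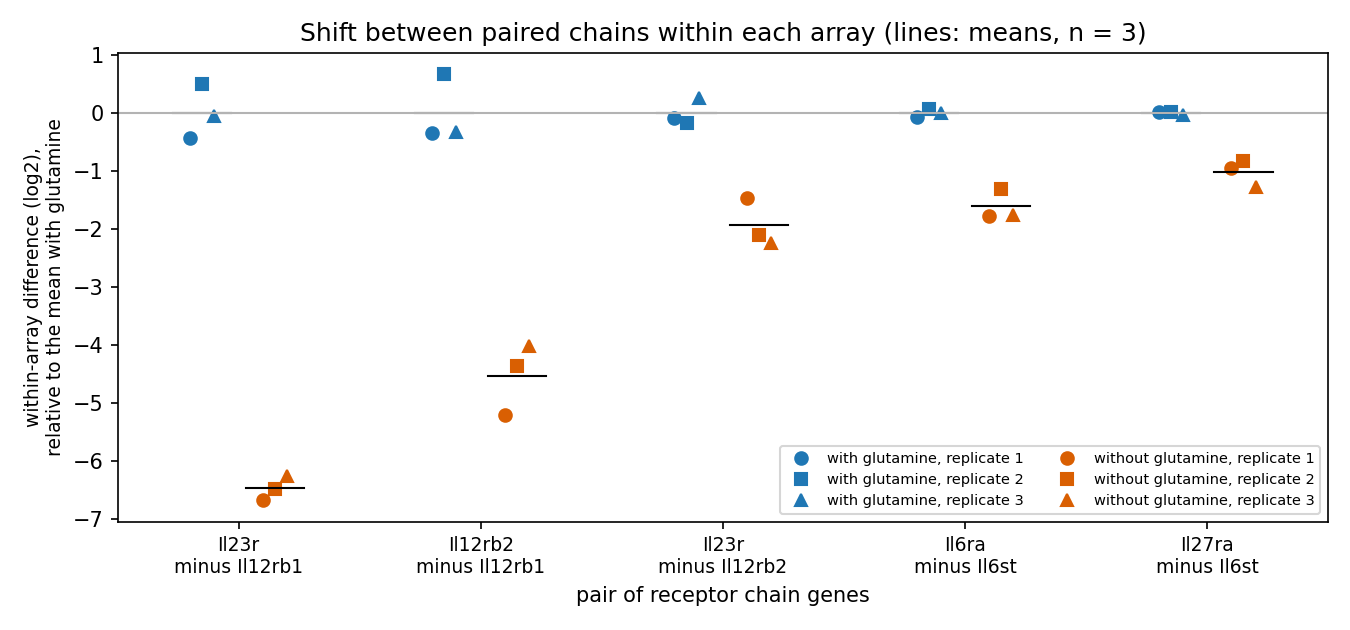
Within-array log2 difference between paired receptor chain genes on each array, set to 0 at the mean with glutamine; lines are means (n = 3). The shift without glutamine ranges from -6.48 for Il23r minus Il12rb1 to -1.02 for Il27ra minus Il6st, and no pair has overlapping groups.

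Genes for the ligands moved in both directions. Of 12 listed ligand subunit genes 11 were measured (Cntf was not analysed here), and 5 of the 11 stood at or under the row median. Of the 11, 2 rose, 3 fell and 6 did not pass, while 9.3% of all genes rose and 13.0% fell. The median change of the list was 0.16 log2 beside 0.06 over all genes. Il23a, which encodes the p19 subunit of IL-23, rose from 6.84 ± 0.16 to 8.48 ± 0.26 log2 (adjusted p = 0.000863), opposite to its receptor gene Il23r. Its arrays read 6.66, 6.98 and 6.87 with and 8.77, 8.29 and 8.38 without glutamine, with no overlap. Il12b, the p40 subunit that IL-23 and IL-12 share, read 3.45 ± 0.02 and 3.61 ± 0.15 log2, under the array medians. Il12a, the other IL-12 subunit, read 3.68 ± 0.07 and 3.55 ± 0.13 and did not pass.

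Among cytokines that signal through gp130, Lif (leukemia inhibitory factor) fell from 11.16 ± 0.52 to 9.39 ± 0.23 log2 and Osm (oncostatin M) from 9.75 ± 0.12 to 8.44 ± 0.11. Ebi3, the subunit that joins p28 to form IL-27, fell from 6.49 ± 0.05 to 5.22 ± 0.04. The highest adjusted p of these falls was 0.00505, that of Lif. Il27, the gene of p28, stood at 3.65 ± 0.04 and 3.84 ± 0.09 and did not pass. Clcf1, named after its values were seen, was the other member that rose, by 0.58 log2 (adjusted p = 0.00949). After either scaling 2 rose and 4 fell, Il6 being the added fall; its level was 3.81 ± 0.10 with and 3.56 ± 0.14 without glutamine, under the array medians.

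The other receptor chains of the family gave little signal. Of 8 listed genes 6 were measured. At an adjusted p under 0.05, 0 rose and 0 fell (limma), while 22.3% of all genes passed, and 0 of these chains had an unadjusted p under 0.05. After centring the arrays, Lifr fell by 0.29 (adjusted p = 0.0264). Their mean over the list lay between 3.67 and 3.68 log2 per array with and between 3.67 and 3.73 without glutamine, and 5 of 6 stood at or under the row median. Cntfr (4.22 ± 0.02 with, 4.33 ± 0.12 without), a chain for ciliary neurotrophic factor, and Csf3r (3.66 ± 0.06 with, 3.74 ± 0.03 without), the receptor for G-CSF, were the brightest. Lif and Osm were thus measured beside readings of Lifr (3.57 ± 0.04 and 3.43 ± 0.08 log2) and Osmr (3.45 ± 0.03 and 3.39 ± 0.09), their own receptor chains, that lay under the array medians.

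**Figure D3:**
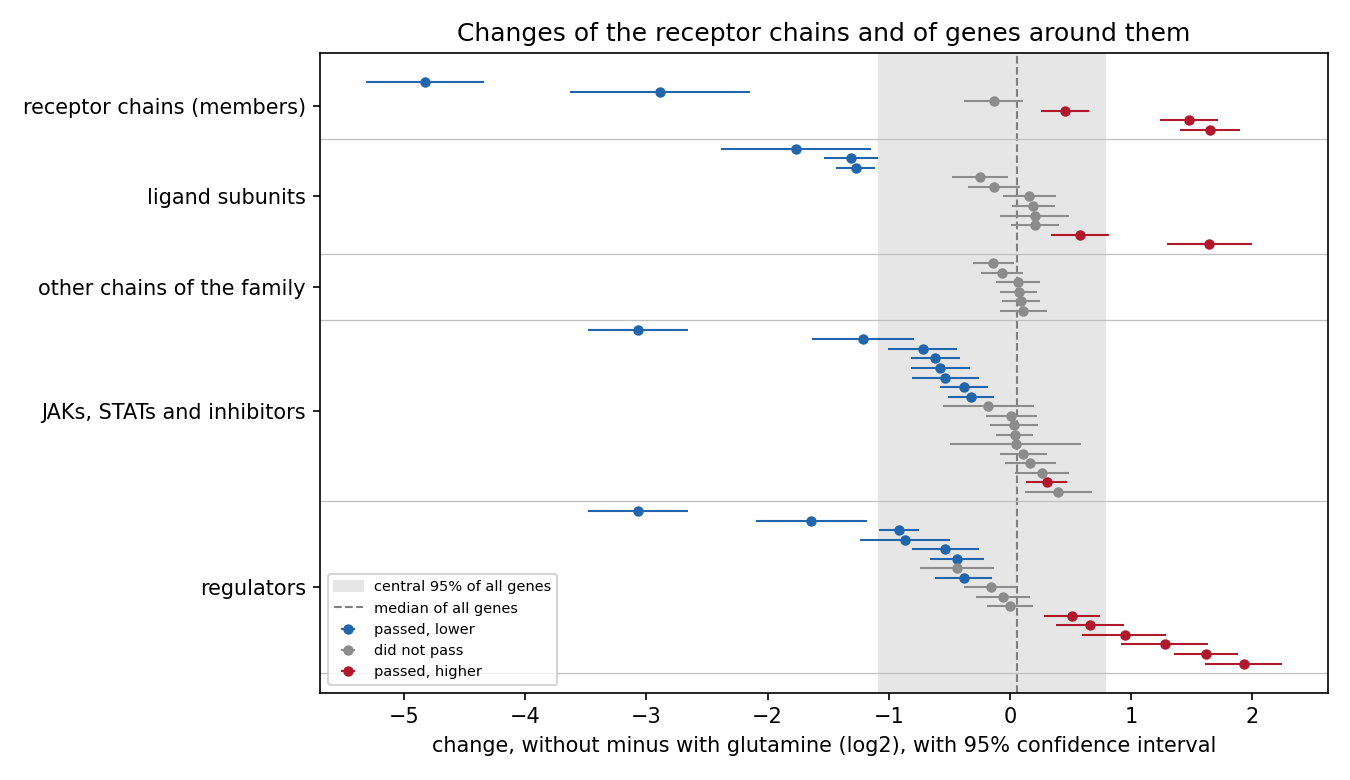
Change of each gene (log2, without minus with glutamine) with its 95% confidence interval, for the receptor chains and 4 lists around them; red and blue passed the test, grey did not, and the band holds the central 95% of all genes (-1.08 to 0.78). Il23r, Il12rb2, Il12rb1 and Il6st lie outside the band, while the other chains of the family sit near 0.

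Below the receptors, STAT genes fell more often than they rose. Of 20 listed JAK, STAT and inhibitor genes 18 were measured. Of these, 1 rose, 8 fell and 9 did not pass, while 9.3% of all genes rose and 13.0% fell. The median change of the list was -0.09 log2 beside 0.06 over all genes. After either scaling 0 of the 18 rose and 8 fell. Falls then also outnumbered rises over all genes, with 1453 higher and 5252 lower after quantile normalization. After centring, 1215 of all genes were higher and 6126 lower. Stat4, which carries the signal of IL-12, read 13.24, 13.76 and 13.12 with and 10.27, 10.44 and 10.20 log2 without glutamine. Those groups stood far apart, with a change of -3.07 (adjusted p = 0.000187). Stat3, which carries the signals of IL-6 and IL-23, fell by 0.54 from 12.94 ± 0.22 to 12.40 ± 0.03 log2 (adjusted p = 0.0197). That Stat3 call was lost when without glutamine replicate 1, 2 or 3 was left out (adjusted p = 0.0509, 0.0703 and 0.0616) and without moderation (0.0747), within a range of 0.00784 to 0.0747.

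Stat2, a partner in interferon signalling, fell by 1.21, Ptpn6, which encodes the phosphatase SHP-1, by 0.72, and Stat6, which acts below IL-4, by 0.62 log2. The count of calls in this list fell from 9 to 5 when without glutamine replicate 2 was left out. The kinases that these receptors carry did not pass. Jak1, which acts at gp130, read 13.55 ± 0.03 and 13.59 ± 0.04 log2, Jak2 read 15.53 ± 0.11 and 15.79 ± 0.12, and Tyk2 read 8.36 ± 0.06 and 8.53 ± 0.14. The 95% confidence intervals of their changes were -0.11 to 0.19 for Jak1, 0.04 to 0.49 for Jak2 and -0.05 to 0.38 for Tyk2. Jak2 read 0.26 higher as deposited (adjusted p = 0.0948) and 0.09 lower after quantile normalization (change -0.09, adjusted p = 0.634; range 0.0803 to 0.634). Socs3, the feedback inhibitor that binds gp130, read 6.75 ± 0.40 and 6.80 ± 0.27 (95% confidence interval of the change -0.49 to 0.59).

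Genes linked to the transcription of these receptors split. Of 21 listed regulators 17 were measured. Of these, 6 rose, 7 fell and 4 did not pass, while 9.3% of all genes rose and 13.0% fell. The median change of the list was -0.16 log2 beside 0.06 over all genes. Stat3 and Stat4, among the falls, were also counted with the JAK, STAT and inhibitor genes. The largest rises were Maf, from 12.54 ± 0.23 to 14.46 ± 0.13 log2, and Ahr, from 11.40 ± 0.11 to 13.02 ± 0.18; both encode transcription factors of TH17 cells. The largest fall after that of Stat4 was Fosl2, an AP-1 family member that acts in TH17 cells, from 10.95 ± 0.41 to 9.31 ± 0.01 (adjusted p = 0.00219). Rora, which encodes a ROR factor, read 11.39 ± 0.11 and 11.33 ± 0.12 and did not pass (95% confidence interval of the change -0.28 to 0.17; chosen after its values were seen). Tbx21, the gene of T-bet, which promotes Il12rb2 in TH1 cells, fell by 0.43 (adjusted p = 0.0193). The Tbx21 call was lost on leaving out any 1 array except with glutamine replicate 3 (adjusted p = 0.0526 to 0.0682, within 0.00564 to 0.0682 over its alternatives).

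The genes flanking Il12rb2 and Il23r on chromosome 6 did not pass. Serbp1, before Il12rb2 in the RefSeq order, read 13.25 ± 0.01 with and 13.25 ± 0.10 log2 without glutamine (95% confidence interval of the change -0.19 to 0.17). Gm4761, a pseudogene between Il12rb2 and Il23r, read 10.19 ± 0.13 and 10.32 ± 0.06 (interval -0.08 to 0.33), and an immunoglobulin kappa variable segment on the far side of Il23r read 5.09 ± 0.60 and 5.44 ± 0.28 (interval -0.38 to 1.06). Both receptor genes thus fell between flanking rows whose intervals exclude a fall of their size. Next to Il12rb1, Arrdc2 fell by 0.62 (adjusted p = 0.00656) and Mir7240 did not pass (-0.03). Next to Il6st, Ankrd55 rose by 0.31 (adjusted p = 0.0332) from a level near the array medians (4.04), while Il31ra did not pass (0.07). The neighbours of Il6ra (She and Atp8b2) and of Il27ra (Palm3 and Rln3) did not pass.

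Profiles were compared over the 6 arrays among 19232 protein-coding genes, each centred on its own mean, by the root mean square difference. With 2 groups of 3 arrays this likeness reflects mainly the size of the group difference. Anxa2 was the closest to Il23r (0.35 log2), with a fall from 12.51 ± 0.57 to 7.60 ± 0.12, ahead of Lum (0.40), Iltifb (0.53), Bnip3 (0.55) and Tgm2 (0.57). Iltifb is nearly identical to Il22, so its own level is uncertain. The closest to Il12rb2 were Gatm (0.21), Il7r (0.245), Elovl6 (0.246), Arrb1 (0.28) and Selp (0.29). Il7r, the gene of the IL-7 receptor alpha chain, fell from 12.61 ± 0.30 to 10.00 ± 0.20.

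The rising members had smaller changes than the falling ones, and their matches were closer on this measure, which is in log2 units and not scaled to the change. Car5b (0.076), Ppt1 (0.093), Sfi1 (0.12), Aplp2 (0.12) and Dus2 (0.13) were the closest to Il12rb1. For Il6st they were Itpr2 (0.094), Smad3 (0.094), Csprs (0.096), Cpd (0.098) and Gab2 (0.10). Smad3, a mediator of TGF-beta signals, rose from 9.65 ± 0.08 to 11.10 ± 0.14 log2.

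**Figure D4:**
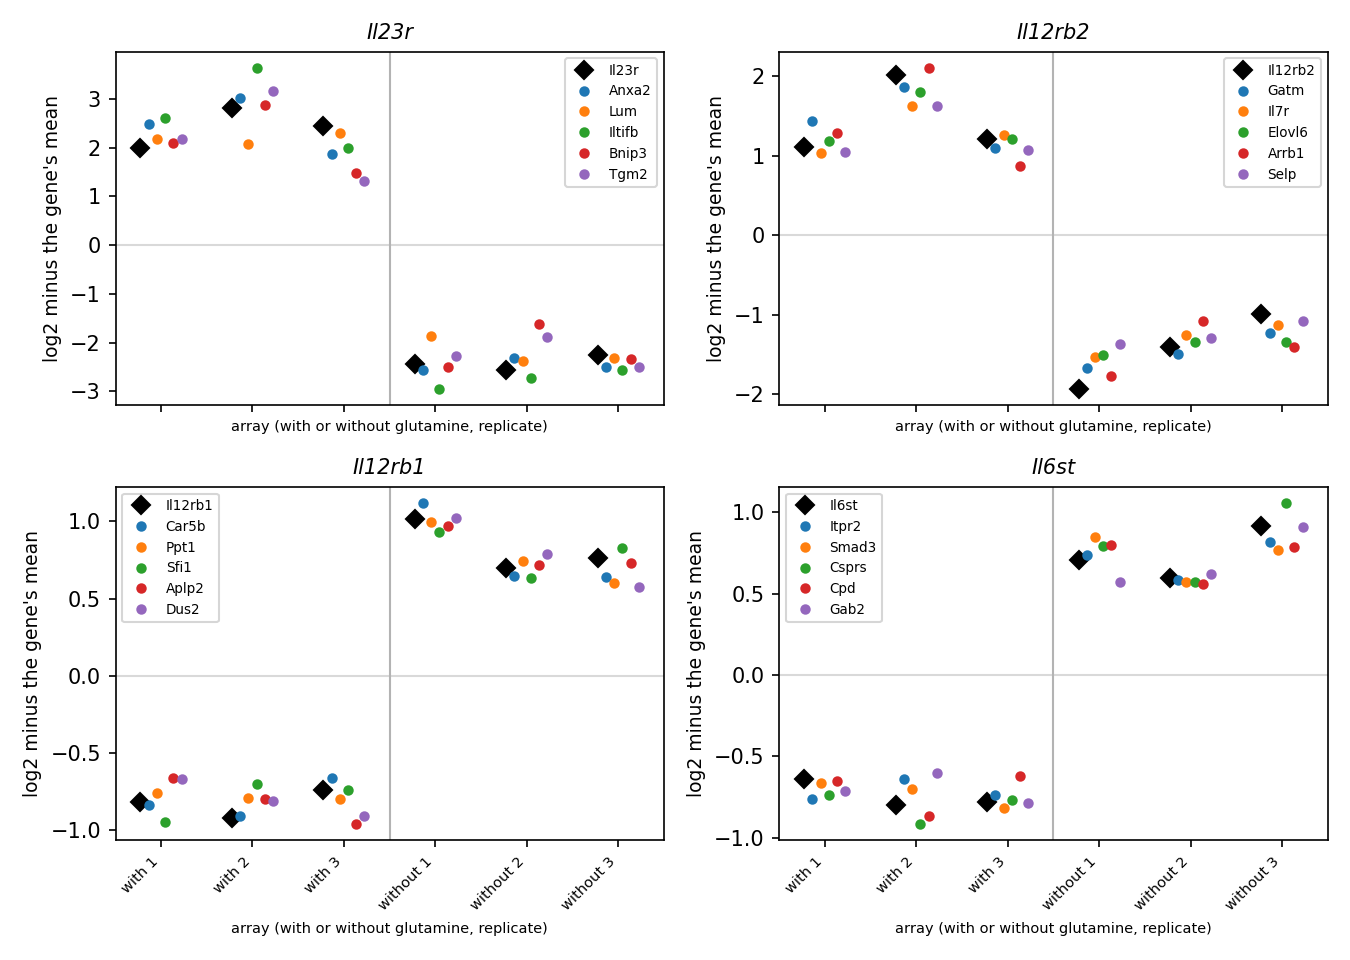
Levels on each array minus the gene's mean over the 6 arrays (log2) for Il23r, Il12rb2, Il12rb1 and Il6st (black diamonds) and for the 5 protein-coding genes closest to each (coloured circles). Whether equal replicate numbers pair arrays across groups is not known. The closest genes shift between groups by amounts near that of the member.

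Markers of cells that the naive CD4 gate should remove were mostly dim. Of 19 measured markers of CD8 T or NK cells, B cells and myeloid cells, 13 stood at or under the row median, against 13389 of all 30702 genes. Of the 19, 0 rose and 3 fell, while 9.3% of all genes rose and 13.0% fell. The mean of these markers lay between 4.37 and 4.43 log2 per array with and between 4.21 and 4.27 without glutamine. The falls were Lyz2, a lysozyme gene of myeloid cells (5.80 ± 0.33 to 4.14 ± 0.14), Klrd1, which encodes the NK receptor chain CD94 (7.99 ± 0.24 to 6.57 ± 0.21), and Cd8b1 (8.10 ± 0.25 to 7.39 ± 0.09). Cd8a read 3.83 ± 0.08 and 3.78 ± 0.06, and Csf1r, a defining macrophage gene that accompanies Il6ra in such cells, read 3.51 ± 0.04 and 3.55 ± 0.05. The part of those 3 falls in the receptor results was not tested.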

How the data were processed

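RNA of 6 TH17-skewed mouse T cell cultures was read on Affymetrix arrays. Per the submitters' processing notes, the authors used RMA and the Transcriptome Analysis Console 4.0 to obtain the deposited log2 values, 1 per array and row. Of the options, annotation version and build, none was given in the sources used here. Precision is limited by how few arrays there are.

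Gene names came from the platform annotation, updated through the RefSeq table of GRCm38.p6. The table's 65956 rows split into 31258 with a single gene, 1492 with more than 1 and 33206 without a name. Each gene kept its brightest row, with no filter on dim genes, which left 30702 genes. Each was fitted with limma 3.58.1 (lmFit, eBayes, two-sided; R 4.3.3), without against with glutamine, with no covariate; p-values were adjusted by Benjamini-Hochberg across all genes at a threshold of 0.05. The fit was tested on simulated data with independent noise and no shift of whole arrays, so that test does not bear on the arrays' scale. Shifts between 2 chains were compared within arrays by exact permutation. Promoter sequences came from RefSeq (GRCm38.p6).

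Some listed genes are not reported here. The members and gene lists were chosen with earlier results of these data known. Genes named from a list are its 4 largest changes past the threshold, or its 2 brightest members where fewer than 2 passed, plus a fixed set of 9 genes; Il12a, Il12b, Il27, Il6, Clcf1, Lifr, Osmr, Rora, Cd3e, Cd4, Cd8a and Csf1r were chosen after their values were seen. For members past the threshold with a change of at least 1 log2, the 5 protein-coding genes with the closest profile are named.

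Alternatives were quantile normalization, centring on array medians, genes above the median level, the mean over rows, all rows, trend and robust moderation, no moderation, array weights, adjusted p under 0.01, a replicate block, and leaving out each array. Plots used matplotlib 3.10.9 and Python 3.11.15.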

Additional observations from a re-analysis of the deposited data

How the results depend on the processing

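Over the 16 alternatives, the change of Il23r ran from -5.04 to -4.63 log2 (adjusted p 3.43e-05 to 0.00863), of Il12rb2 from -3.11 to -2.60 (0.000616 to 0.0291), of Il12rb1 from 1.49 to 1.71 (0.000121 to 0.0111) and of Il6st from 1.32 to 1.55 (0.00017 to 0.012). These 4 kept direction and call in each of the 16. Settings of moderation, threshold, rows tested or replicate block could alter the call of a member but not the size of its change. Il27ra ran from 0.30 to 0.52 (0.0079 to 0.0488) and missed only the threshold of adjusted p under 0.01 (0.454 log2, adjusted p = 0.0113). Il6ra ran from -0.29 to -0.03 (0.0718 to 0.787) and passed in none. The shifts between paired chains moved by less than 1 replicate SD, pooled over both groups, in each of 7 alternatives. Some moved by more than the SD of 1 group alone. Of the 7, the mean over rows could not move the shifts, as each member has 1 row. No label says whether equal replicate numbers pair cultures across the groups. Deviations of same-numbered arrays from their group means correlated at 0.07, -0.23 and 0.28, and not every array correlated best with its own number. With 3 arrays per group, such correlations cannot decide whether the cultures were paired. With the replicate block 6292 genes passed and no member's call changed.

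The count over all genes, 6843 as reported, was 10951 over all rows, 3832 without moderation, 2943 at adjusted p under 0.01 and between 4060 and 6501 with 1 array left out. Leaving out with glutamine replicate 2, or without glutamine replicate 2 or 3, gave 4344, 4060 or 4558. After quantile normalization 21.7% and after centring 16.6% of calls were rises, against 41.7% as deposited, 61.8% over all rows (6773 higher, 4178 lower) and 27.2% at adjusted p under 0.01. The regulators past the threshold went from 13 to 7 without moderation and to 7 at adjusted p under 0.01. The JAK, STAT and inhibitor genes went from 9 to 5 at adjusted p under 0.01, and ranged from 5 to 8 with 1 array left out. The other receptor chains went from 0 to 1 after centring. The stricter threshold lowers counts and the larger number of rows raises them by construction, and leaving out an array leaves fewer samples; the cause of the other shifts was not tested. The 3 arrays per group and the unexplained values above 16 limit what can be read from small changes such as those of Il27ra and Il6ra.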
